A study of Mus musculus with 3 samples.

Results

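Long-term HSCs were ordered here by how much of their RNA came from introns, and the 606 cells with the highest intronic share were set against the 607 cells with the lowest. The cells were those that the deposited barcode table calls as cells, with over 3000 ATAC fragments in peaks and at least 2000 RNA UMIs, which left 3032 of 3757 called cells (80.7%). For each cell the share was its intronic UMIs divided by its intronic and exonic UMIs together, where a UMI is 1 captured RNA molecule. Ranking by the share gave 5 groups of 607, 606, 607, 606 and 606 cells, called quintiles 1 (lowest) to 5 (highest). The compared cells were thus chosen by their measured intronic and exonic UMIs, so differences in the share itself, and in the exonic and intronic UMIs that form it, are descriptions of the choice.

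All cells came from a single DOGMA-seq preparation, in which chromatin accessibility (ATAC), RNA and antibody tags are read from the same permeabilised cells. They were long-term HSCs (LSK CD48- CD150+ CD34-) sorted from c-Kit-enriched bone marrow of wild-type 8-week-old female C57BL/6J mice, with no treatment and no other genotype or age in the comparison. How many mice went into the preparation is not stated in what was read, and the cells of 1 preparation are not replicates of anything. No test was therefore possible, values are given side by side, and intervals (95%, exact binomial) cover counting error only. The interval on the mitochondrial ratio of medians is the exception, as it is taken over cells and covers their spread within this preparation. The 606 cells of quintile 2 and the 606 of quintile 4 had no part in the comparison of the extremes, and their difference is given beside it as a description. All 3032 barcodes were read in both the ATAC and the RNA library. The deposited fragment file held 42000180 ATAC fragments, of which 36281677 belonged to these cells, or 3977 to 194399 per cell with a median of 11483.5. RNA UMIs per cell ran from 2009 to 52809 with a median of 3891.

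The promoters of HSC and megakaryocyte markers were more accessible than those of other blood cells. Over windows of 1000 bp to each side of the start, the 11 HSC markers had a median of 10.3 fragments per 1000000 and 6 of them lay above the median protein-coding gene (8.25). The 6 megakaryocyte markers, a programme known to be open in many HSCs, had a median of 20.8. The medians were 0.359 for erythroid, 1.52 for myeloid, 2.24 for B cell, 0.511 for T cell, 0.055 for mast cell and 4.11 for endothelial and stromal markers, cycling markers had 57.4, and no listed marker was at 0. Between the highest and lowest quintiles the summed marker windows differed by a log2 ratio of 0.03 (interval -0.08 to 0.14) for HSC, -0.19 (-0.34 to -0.04) for megakaryocyte, 0.03 (-0.39 to 0.46) for erythroid, -0.17 (-0.52 to 0.18) for myeloid, 0.13 (-0.19 to 0.45) for B cell, 0.14 (-0.47 to 0.74) for T cell, -0.24 (-1.03 to 0.54) for mast cell, 0.09 (-0.25 to 0.42) for endothelial and stromal and -0.04 (-0.13 to 0.06) for cycling markers. Except for the 6 megakaryocyte markers, all of these intervals spanned 0, and over the starts of the longer list of 21 megakaryocyte and platelet genes the ratio was 0.02 (-0.04 to 0.08).

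Intronic RNA comes from transcripts that have not been spliced, which are found in the nucleus, whereas most exonic RNA is mature message in the cytoplasm. The share therefore depends on transcription, splicing and export as well as on how much cytoplasm is kept when the membrane is opened, and these cannot be told apart by the share. Immediate-early genes such as Fos, Egr1 and Nr4a1 are switched on within minutes of a stimulus without new protein synthesis. Several of them carry the cAMP response element (CRE), the string TGACGTCA or its shorter core TGACG, which CREB and ATF proteins bind. Nr4a1, an orphan nuclear receptor with a known role in keeping HSCs quiescent, was the gene whose interval for open chromatin between the extremes of the share lay farthest from 0.

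The sequences below are those the results turn on. The first pair are the RefSeq promoters of Nr4a1 (GRCm38, chr15:101266596-101266895, plus strand, at an inner start of the gene) and of its relative Nr4a2 (chr2:57123954-57124253, minus strand), shown because both genes were more accessible in the highest quintile. Capitals mark TGACG or its reverse complement CGTCA, of which each promoter holds 4. Of 32851 RefSeq promoters of 300 bases, 20.8% hold at least 1 match and 0.231% hold at least 4, and a match is a run of letters and not a measured binding site. These promoters were chosen after the values of the genes were seen, and the 2 RefSeq promoters of Per1, a known CREB target described below, hold 1 match each.
Nr4a1 promoter: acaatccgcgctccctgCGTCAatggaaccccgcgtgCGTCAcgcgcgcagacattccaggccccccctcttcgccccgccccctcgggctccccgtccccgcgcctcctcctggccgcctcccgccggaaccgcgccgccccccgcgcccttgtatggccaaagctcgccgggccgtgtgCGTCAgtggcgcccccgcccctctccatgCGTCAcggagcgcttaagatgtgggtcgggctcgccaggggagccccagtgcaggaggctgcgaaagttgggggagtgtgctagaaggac
Nr4a2 promoter: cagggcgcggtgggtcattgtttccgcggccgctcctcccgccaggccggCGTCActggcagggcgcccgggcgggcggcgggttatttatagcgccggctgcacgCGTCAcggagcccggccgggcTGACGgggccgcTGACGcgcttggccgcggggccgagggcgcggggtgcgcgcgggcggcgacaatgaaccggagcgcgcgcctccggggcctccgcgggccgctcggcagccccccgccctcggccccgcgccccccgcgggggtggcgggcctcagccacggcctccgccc
The other pair are the centres of an intergenic tile with more fragments in the highest quintile (chr2:167775101-167775400), with TGACG in capitals, and of a tile in Tex14 with fewer (chr11:87423601-87423900), with CGTCA in capitals. Both are on the plus strand, and the same short string occurs in the tile that was higher and in the one that was lower.
Intergenic tile: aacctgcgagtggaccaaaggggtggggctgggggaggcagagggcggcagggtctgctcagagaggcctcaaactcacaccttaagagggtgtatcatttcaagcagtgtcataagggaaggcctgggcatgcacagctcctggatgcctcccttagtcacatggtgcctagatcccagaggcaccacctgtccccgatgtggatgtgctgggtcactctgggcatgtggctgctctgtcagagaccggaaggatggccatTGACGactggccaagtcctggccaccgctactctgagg
Tex14 tile: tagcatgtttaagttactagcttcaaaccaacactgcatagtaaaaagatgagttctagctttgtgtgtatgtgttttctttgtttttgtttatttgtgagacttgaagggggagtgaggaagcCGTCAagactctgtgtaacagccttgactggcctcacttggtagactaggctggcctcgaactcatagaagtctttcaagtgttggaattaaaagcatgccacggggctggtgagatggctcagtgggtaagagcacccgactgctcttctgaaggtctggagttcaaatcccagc

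The intronic share had a median over cells of 48.4% and an SD of 5.43 percentage points. For a cell with the median UMI count, counting error alone is 0.801 points (binomial SD). The medians of quintiles 1 to 5 were 40.9%, 45.7%, 48.4%, 50.8% and 54.4%. The lowest cells stood at 20.2%, 24.6% and 25.004% and the highest at 65.5%, 66.8% and 67.8%, so the lower tail reached farther from the median than the upper. The shares on either side of the outer boundaries were 43.776% and 43.781% between quintiles 1 and 2, and 52.264% and 52.265% between quintiles 4 and 5, and no gap in the distribution separates the groups.

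**Figure D1:**
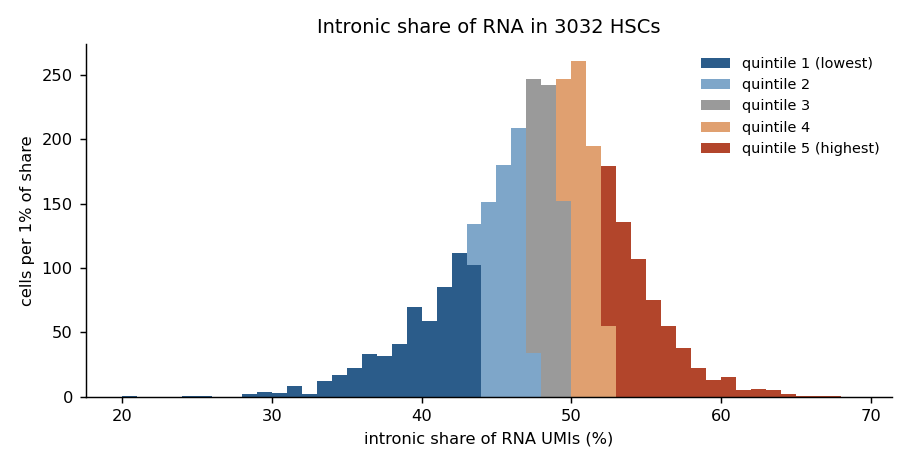
Histogram of the intronic share of RNA UMIs (x axis, percent) over the 3032 cells, with cells per 1 percentage point on the y axis and colours for the quintiles, stacked where a bin holds cells of 2 quintiles. The distribution has 1 peak near the median of 48.4%, and the lower tail runs down to 20.2%.

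Cells with a high intronic share held fewer exonic and more intronic molecules. The median exonic UMI count went from 2212 in quintile 1 through 2026.5, 1984 and 1962 to 1845 in quintile 5, a ratio of 0.834 between the extremes. The median intronic count went from 1493 through 1685, 1843 and 2011 to 2259.5, a ratio of 1.51. Both counts form the share that chose the cells, so these values describe the choice. The sum of both rose less, from 3733 to 4130 UMIs (ratio 1.11), and 66.2% of cells of the highest quintile lay above the median of the lowest. This gain in total RNA depended on how the share was taken. It was 1.00 when the share was taken from confidently mapped reads in place of UMIs. Among cells with at least 4000 UMIs it was 0.971, but that minimum is set on the total being compared. Across the cells the share had a Spearman rho of 0.126 with the total UMIs, which is a description of 3032 cells that share 1 library, and the total contains the counts that form the share.

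Other measures of the same RNA reads, which are not independent of the counts in the share, moved as well. The median number of genes detected was 1990 in the lowest quintile and 2096 in the highest, and per 100 UMIs it was 53.1 and 50.8, so the added molecules came with few added genes. Antisense reads made up a median of 12.8%, 14.3%, 15.2%, 15.7% and 16.1% of the exonic reads in quintiles 1 to 5, with 87.3% of the highest quintile above the median of the lowest. Of the intronic reads the antisense part went the other way, with medians of 40.04%, 39.4%, 39.1%, 38.0% and 36.1%. Intergenic reads were 17.7% of mapped RNA reads in the lowest and 16.3% in the highest quintile, and the share of duplicates differed by under 1 percentage point (75.6% and 75.5% of exonic reads, 75.7% and 76.0% of intronic reads). The antisense and intergenic values move with the share, and their part in it was not tested.

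**Figure D2:**
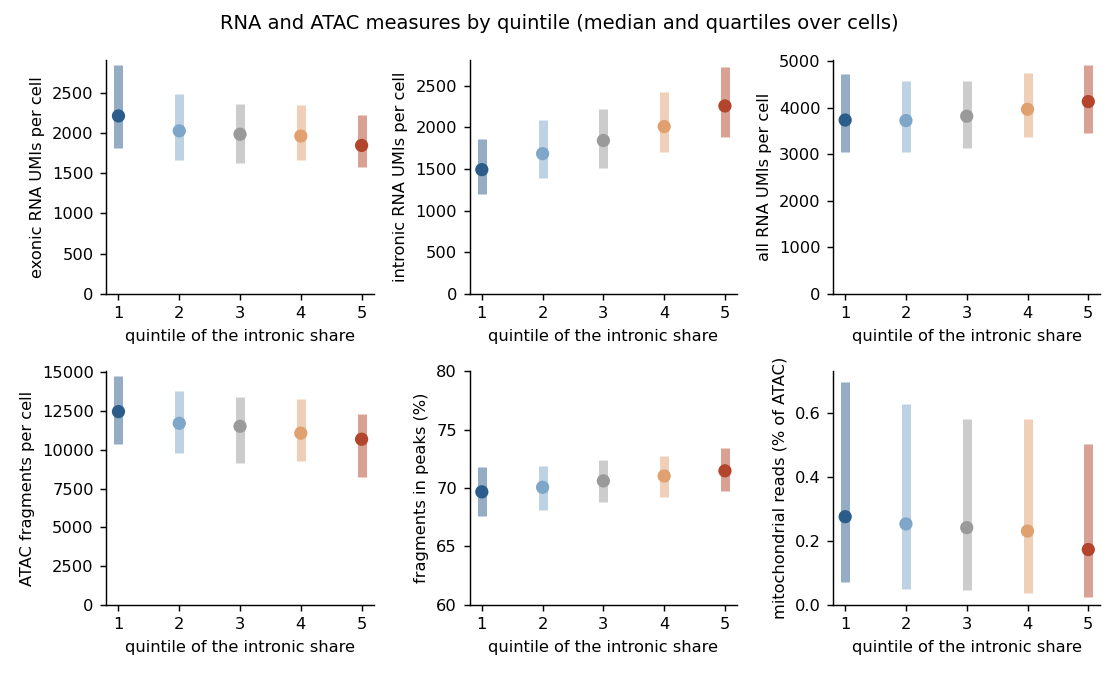
Per-cell measures in quintiles 1 to 5 of the intronic share (x axes), with the point at the median and the bar over the quartiles of the cells of each quintile. Exonic UMIs fall from 2212 to 1845 while intronic UMIs climb from 1493 to 2259.5 and all UMIs from 3733 to 4130; ATAC fragments fall from 12472 to 10689.5, the percent of fragments in peaks (axis drawn from 60 to 80%) climbs from 69.7% to 71.5%, and mitochondrial read pairs as a percent of ATAC read pairs fall from 0.276% to 0.173%.

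Mitochondrial DNA, which lies in the cytoplasm and is cut readily by the transposase, was read less often in the cells with the most intronic RNA. The median per cell of mitochondrial read pairs, as a percent of all ATAC read pairs, was 0.276%, 0.254%, 0.242%, 0.231% and 0.173% in quintiles 1 to 5, a ratio of 0.627 between the extremes. The decline held at every step, but the groups overlapped widely, since 39.1% of the highest quintile lay above the median of the lowest, and the rho over cells was -0.082. Cells without a mitochondrial pair numbered 33, 41, 44, 56 and 56. Cells with over 1% numbered 100, 91, 90, 86 and 74, that is 16.5% (13.6 to 19.7) in the lowest and 12.2% (9.71 to 15.1) in the highest quintile. Summed over cells the share was 1.73%, 1.16%, 1.51%, 1.24% and 1.39%, which is not ordered. A few cells, with up to 29.3% each, carried much of the sum, and the 10 cells with the most held 28.6% to 37.2% of the mitochondrial pairs of their quintile. With the share taken from reads, the summed log2 ratio of the highest over the lowest quintile was 0.05 in place of -0.32. The ratio of the medians (0.627) had an interval over cells of 0.469 to 0.961. It lay between 0.567 and 0.750 under the alternatives run, which share most cells and are no replicates. The interval spanned 1 with the share ranked within bins of ATAC fragments (0.533 to 1.10) and among cells with at least 4000 UMIs (0.355 to 1.03). With the share taken from reads its upper end was 1.00. Exonic UMIs include transcripts of the mitochondrial genome, which the barcode table does not separate, so a link through mitochondrial RNA was not tested.

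The ATAC side of the same cells was shallower at a high share, with more of its fragments in peaks. Median fragments per cell were 12472, 11718, 11524, 11079.5 and 10689.5 in quintiles 1 to 5 (ratio 0.857, rho -0.205), with 22.9% of the highest quintile above the median of the lowest. Since RNA rose while ATAC fell, the RNA UMIs per 100 ATAC fragments went from 30.01 to 40.6. The median percent of fragments in peaks was 69.7%, 70.1%, 70.6%, 71.0% and 71.5% (rho 0.232). The enrichment of fragment ends at transcription starts was 6.78 in the lowest and 7.04 in the highest quintile. The nucleosome signal, the ratio of fragments that span 1 nucleosome to shorter ones, went from 0.728 to 0.682. Depth and these measures of quality move with the share across all quintiles, and they stand beside every chromatin value below.

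Fragments shifted by a small amount towards promoters. The part within 1000 bp of a transcription start was 38.3%, 38.1%, 38.6%, 39.3% and 39.5% of fragments in quintiles 1 to 5, a log2 ratio of 0.044 (0.042 to 0.047) between the extremes and 0.047 between quintiles 4 and 2. The intronic part of the genome went from 28.8% to 28.0% (-0.042), the intergenic part from 26.5% to 26.2% (-0.019), and exons outside promoters stayed near 6.3% (-0.004). Bodies of genes over 200 kb had 7.20% and 6.88% of fragments (-0.065, and -0.056 for quintiles 4 over 2), those of 50 to 200 kb had a log2 ratio of -0.037, and those up to 10 kb one of -0.007, so the loss was larger in longer genes. Fragments too short to span a nucleosome made up 45.3% and 46.4%. The X chromosome held 1.91%, 1.91%, 1.89%, 1.83% and 1.83% of fragments, a log2 ratio of -0.064 (-0.075 to -0.053) with -0.063 for quintiles 4 over 2, and the autosomes lay between -0.015 and 0.022. With the share ranked within bins of ATAC depth, the promoter ratio was 0.025 in place of 0.044.

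Few genes differed in open chromatin by the set size. Fragments were counted over the gene body and 2000 bp upstream, and a gene was called where the highest and lowest quintiles differed by at least 1.5-fold with at least 200 fragments in both together. Of 13391 protein-coding genes with that many fragments (of 21755), 24 were higher (0.179%) and 67 were lower (0.5%) in the highest quintile. Scaled to fragments within 1000 bp of a transcription start in place of all fragments, 17 were higher and 95 lower. The median gene had a log2 ratio of -0.003 and 49.1% lay above 0, which the scaling to all fragments largely sets. Called genes were thinly covered, with a median of 291.5 fragments for the higher and 272 for the lower ones against 675 for all genes counted. In quintiles 4 over 2, 14 of the 24 and 48 of the 67 had the same sign, with medians of 0.05 and -0.14. The median over all genes counted was 0.01 there, and the share of all genes with each sign was not counted. A count that climbed at every step from quintile 1 to 5 was seen in 298 genes (2.23%) and a falling one in 182 (1.36%), as fragments per 10000.

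Among the 8 genes with the largest gain, Nr4a1 was the only one with over 1000 fragments in both quintiles together. Its counts were 1159, 1500, 1606, 1681 and 1631 in quintiles 1 to 5, or 145.7, 198.8, 222.4, 240.1 and 250.6 per 1000000. The log2 ratio was 0.78 (0.67 to 0.89), 1.72-fold, with 0.27 (0.17 to 0.37) for quintiles 4 over 2, and the step from quintile 1 to quintile 2 was the largest. Rgs1, which ends signalling through G proteins, had the largest ratio at 0.87 (0.56 to 1.18), from 145, 140, 240, 235 and 217 fragments, so its lower 2 quintiles and upper 3 quintiles stood apart. Ppp1r3d, a glycogen-targeting subunit of protein phosphatase 1, climbed at each step from 91 through 106, 116 and 127 to 131 (0.81). Tnfrsf10b, a death receptor for TRAIL, had 178, 209, 211, 198 and 247 (0.76), and Rrad, a small Ras-like GTPase, 161, 181, 168, 174 and 215 (0.71). Ctla2b, an inhibitor of cysteine proteases, had 0.74, but it overlaps the called gene Gm49392 and has the near copy Ctla2a (-0.05), and the shared fragments cannot be told apart. The acyltransferase gene Zdhhc22 (0.74) and the transcription factor gene Hand1 (0.73) rested on 201 and 240 fragments. With each cell thinned to 3000 fragments, Zdhhc22 was at 0.17 (-0.68 to 1.03) and Ctla2b at 0.42 (-0.15 to 0.99), and the intervals of Ppp1r3d and Rrad also spanned 0. In quintiles 4 over 2, Hand1 was at -0.28, Tnfrsf10b at 0.03 and Rrad at 0.05, so these rested on the end quintiles.

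The 8 genes with the largest loss were Ros1, a receptor tyrosine kinase (-0.95; 161, 114, 125, 114 and 68 fragments), the cadherin gene Cdh18 (-0.90; 164, 196, 124, 96 and 72), Fam83e (-0.89), the glutamate receptor gene Grik2 (-0.87; 154, 128, 131, 76 and 69), the growth factor gene Mdk (-0.87; 194, 194, 139, 159 and 87), the phospholipase gene Plch1 (-0.86), Lrrc4c, which codes for a synaptic adhesion protein (-0.83), and Cops2, a subunit of the COP9 signalosome (-0.80). Cdh18, Lrrc4c and Grik2 span over 600 kb each, their fragments lie scattered over the body, and in the window at the start they had 1, 5 and 15 fragments in both extreme quintiles together. With thinned cells Cdh18 was at -0.47 (-1.43 to 0.46) and Ros1 at -1.45 (-2.41 to -0.56), and the intervals of Fam83e, Grik2 and Mdk spanned 0. At the start alone Fam83e was at -0.32 (-0.90 to 0.25). The 67 lower genes as a whole were no longer than the rest, with a median length of 25089 bp against 27567 bp for all genes counted.

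Further genes named here were chosen after their values were seen, and the first 4 fell short of 1.5-fold. Skil, a repressor of Smad signalling, had 1498, 1643, 1699, 1719 and 1685 fragments (log2 0.46, 0.36 to 0.56). Aff4, the scaffold of the super elongation complex, had 770, 826, 909, 914 and 894 (0.50, 0.36 to 0.65). Sik1, a kinase gene known as a target of CREB, had 1243, 1332, 1488, 1542 and 1389 (0.45, 0.34 to 0.56). Per1, a clock gene, had 2633, 2787, 2910, 2882 and 2641 (0.29, 0.21 to 0.37). In all 4, counts were lowest in the lowest quintile although that quintile had the most fragments in all. Among the 67 called lower genes, Fhdc1, a formin, had 613, 356, 381, 404 and 322 (-0.64, but 0.29 for quintiles 4 over 2), with quintile 1 standing alone, and Cavin2, which shapes caveolae, had 333, 257, 178, 206 and 164 (-0.73).

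**Figure D3:**
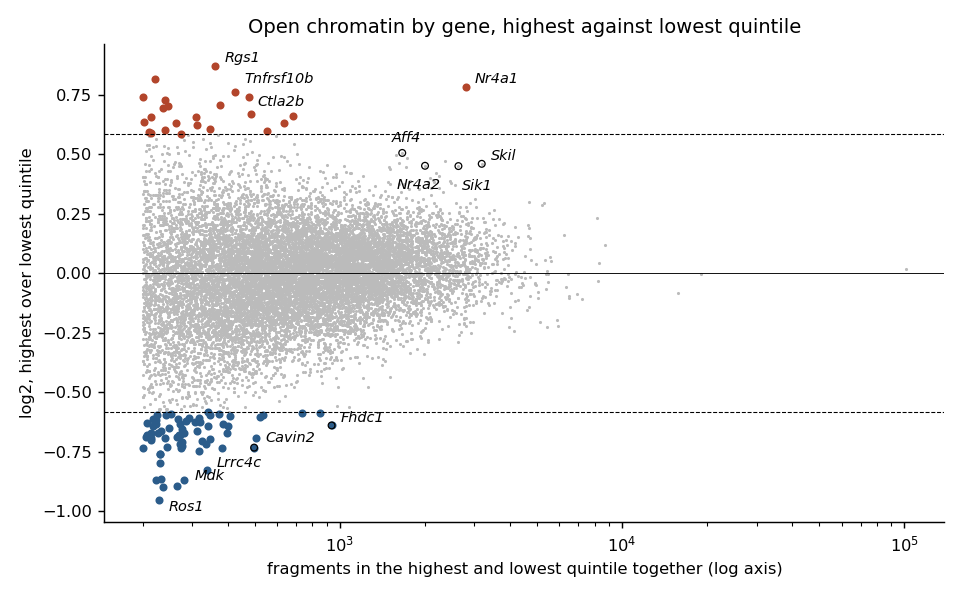
Each point is a protein-coding gene with at least 200 fragments; the x axis (log) gives its fragments in the highest and lowest quintiles together and the y axis the log2 ratio of the highest over the lowest, with dashed lines at 1.5-fold, the 24 higher genes in red and the 67 lower in blue. Nr4a1 at 0.78 lies to the right of all other called genes, and rings mark genes chosen after their values were seen.

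Within the Nr4a1 locus (chr15:101254269-101274795, plus strand) the gain was uneven. At the tile of the upstream start (chr15:101254001-101254500) the counts were 203, 241, 268, 260 and 282 (log2 0.76). At the inner start (chr15:101266501-101267000), which covers the promoter with 4 CRE cores, they were 332, 427, 439, 481 and 473 (0.80). In the 16 tiles from there to the end of the gene (chr15:101267001-101275000) there were 248, 416, 468, 507 and 441 fragments, a log2 ratio of 1.12 (0.89 to 1.35), whose interval overlaps that of the inner start (0.59 to 1.01). The 4 tiles next to the inner start were at 0.57, 0.51, 0.55 and 0.10, below both starts and with intervals that spanned 0. Some single tiles in this stretch rested on few fragments, such as 4 and 28 in quintiles 1 and 5 at chr15:101273501-101274000 (lower bound 1.58) and 8 and 42 at chr15:101270001-101270500 (lower bound 1.57). Over 1500 bp of intergenic sequence just past the annotated end there were 63, 122, 142, 177 and 193 fragments, or 7.92, 16.2, 19.7, 25.3 and 29.7 per 1000000. That is a log2 ratio of 1.90 (1.49 to 2.34), 3.74-fold, and the counts climbed at each step and came from 43, 81, 99, 103 and 119 cells. Quintiles 4 over 2 gave 0.64 (0.30 to 0.99). The region was found by looking for the largest ratios in these data and has no independent check.

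The same part of other genes was then counted, in the 2000 bp past the annotated end, as a choice made after seeing the data. Of 1628 genes with at least 100 fragments there in the extreme quintiles, Nr4a1 had the highest ratio (72 fragments in quintile 1 and 209 in quintile 5; log2 1.83) and Sik1 the next (69, 122, 129, 139 and 141; 1.32). After these came Fbxo2 (0.96), Fbxl8 (0.91) and Nedd8 (0.89). Among the lowest were Rps19bp1 (93, 62, 69, 35 and 35; -1.12), Btbd18 (-1.09), Tmx2 (-1.06) and Cltb (-1.05). Over all protein-coding genes the ratio past the end was 0.004.

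**Figure D4:**
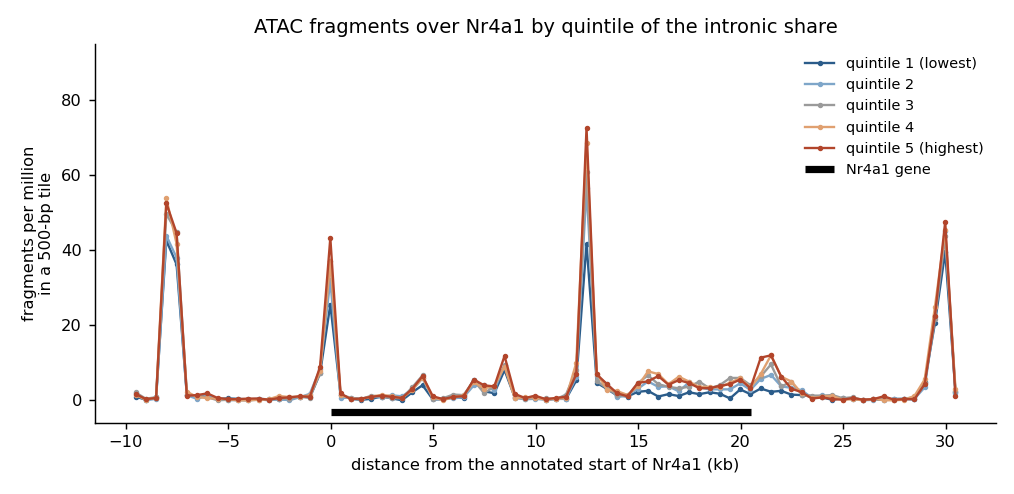
ATAC fragments per 1000000 in 500 bp tiles (y axis) against distance from the annotated start of Nr4a1 in kb (x axis), with a line for each quintile of the intronic share and a black bar over the gene. The quintiles are ordered at both starts, and just past the end of the black bar the highest quintile stands 3.74-fold above the lowest over 1500 bp.

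Of the 27 gene lists, the immediate-early and stress genes had the highest ratio. Summed over the list the fragments per 10000 were 29.8, 31.6, 32.4, 33.6 and 34.2 in quintiles 1 to 5, a log2 ratio of 0.20 (0.17 to 0.22) and of 0.09 for quintiles 4 over 2. Of its 30 members with enough fragments 26 lay above 0, with a median of 0.16 beside the median of -0.003 over all genes, and 1 (Nr4a1) was past 1.5-fold. Without Nr4a1 the list was at 0.16. The members with the most fragments were the phosphatase gene Dusp1 (0.17) and the transcription factor gene Egr1 (0.28). Dusp1 was counted over an annotated span of 56539 bp, and at its annotated start it was at -0.37 (-0.77 to 0.03; 137 and 87 fragments). Nr4a2 was at 0.45, Cebpb at 0.43, the AP-1 gene Fosl2 at 0.41, Fos at 0.36, Atf3 at 0.32, Junb and Klf6 both at 0.24 and Zfp36, which marks short-lived messages for decay, at 0.26. The 4 members below 0 were Jun (-0.02), Nfkbia (-0.03), Fosb (-0.09) and Myc (-0.25).

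Summed over the list, the ratio was larger in the body than at the start, and Nr4a1 and Fosl2 carried much of the body ratio. In the window of 1000 bp around the starts the list had a ratio of 0.17 (all genes 0.044), in gene bodies past the first 2000 bp one of 0.36 (0.31 to 0.42; all genes -0.033) and in the 2000 bp past the end one of 0.26 (0.18 to 0.33). In the body, Fosl2 had 163, 250, 265, 275 and 287 fragments (1.11, 0.82 to 1.39), Nr4a1 had 865, 1160, 1251, 1330 and 1255 (0.83), and Nr4a2 had 621, 722, 720, 671 and 682 (0.42). Dusp1, with its long annotated span, had the most (1454, 1392, 1455, 1452 and 1387; 0.22). Without Nr4a1 and Fosl2 the body ratio of the list was 0.20 (0.14 to 0.27), near that at the starts. Of the 16 members with at least 50 fragments in the body 10 were above 0 and 6 below, among them Fosb (278, 251, 223, 242 and 177; -0.36, -0.64 to -0.09) and Jun (-0.40, -0.94 to 0.13). Past the end, Socs3, an inhibitor of cytokine signalling, had 64, 101, 89, 90 and 96 (0.87), Fos 60, 78, 101, 87 and 84 (0.78) and Ier2 164, 161, 208, 224 and 185 (0.46). Among members below 0 there were Junb (-0.32), Jun (-0.19), Btg2 (-0.14), Fosb (-0.13) and Jund (-0.11), with intervals that spanned 0. Nr4a1 held 72 and 209 of the list's 2835 and 2776 fragments past the end in quintiles 1 and 5, and the value without it was not taken. The split of genes into parts was chosen after seeing the data.

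The other lists of nuclear RNA production moved less. Nuclear-retained noncoding RNAs were at 0.13 (0.07 to 0.20; 4 of 5 members above 0), with Neat1, the RNA of paraspeckles, at 0.18 and Malat1 at 0.08. Transcription elongation factors were at 0.13 (0.10 to 0.16; 20 of 26 above 0), with Ell at 0.09, Ccnt1 at 0.39, Paf1 at 0.39, Hexim1 at 0.27, Cdk9 at 0.16 and Cdk12 at -0.18. Splicing factors were at 0.03 (0.00 to 0.05; 19 of 35 above 0), with Luc7l2 at 0.18 and Srsf2 at 0.22, and RNA export and decay factors at 0.02 (-0.02 to 0.06; 13 of 25), with Smg1 at -0.08 and Upf1 at 0.17.

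The HSC identity and megakaryocyte lists were on the lower side. The HSC identity list had 41.4, 38.2, 37.7, 38.2 and 38.0 fragments per 10000, a ratio of -0.12 (-0.15 to -0.10), with 5 of 26 members above 0, and the lowest quintile alone stood apart, as quintiles 4 over 2 gave 0.00. By part of the gene the ratio was -0.01 (-0.07 to 0.04) at the starts, -0.16 (-0.18 to -0.13) in the bodies past the first 2000 bp and -0.13 (-0.24 to -0.03) past the end, where all genes had 0.044, -0.033 and 0.004. Lower bodies were not particular to this list, with -0.14 for RNA export and decay, -0.13 for splicing factors and -0.12 for S phase genes. Other lists went the other way, such as transcription elongation (0.11) and quiescence (0.12). Mecom, a regulator of HSC self-renewal, had 3697, 3363, 3339, 3049 and 2811 fragments (-0.11), Prdm16 was at 0.00, Etv6 at -0.23, Meis1 at -0.19 and Slamf1 at -0.42. Megakaryocyte and platelet genes were at -0.10 (-0.14 to -0.06; 4 of 16 above 0), with Zfpm1 at -0.10, Fli1 at -0.24, Gp9 at -0.38 and Vwf at 0.10. By part this list had 0.02 (-0.04 to 0.08) at the starts, -0.17 (-0.22 to -0.11) in the bodies and -0.59 (-0.87 to -0.31) past the end, where quintiles 4 over 2 gave 0.00, -0.02 and 0.09. Zfpm1 was at 0.15 (0.04 to 0.25) at its start. Interferon-stimulated genes were at -0.08 (-0.15 to -0.02; 4 of 12 above 0), with Stat2 at 0.05. Quintiles 4 over 2 gave 0.05 for this list. By part it had 0.02 (-0.06 to 0.11) at the starts and -0.26 (-0.38 to -0.14) in the bodies. The quiescence list was at 0.08 (0.05 to 0.11; 14 of 23 above 0), with Ccnd3 at 0.01, Foxo3 at 0.08, Cdkn1a at 0.35 and Cdk6 at -0.31, and it shares Nr4a1, Egr1, Myc and Fosb with the immediate-early list. Nr4a1 held 1159 and 1631 of its 19516 and 16898 fragments in the lowest and highest quintiles. The value of the quiescence list without Nr4a1 was not taken, so its gain is not shown apart from that gene.

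In ATAC fragments over their gene windows, the marker genes of platelet bias that the study used differed little. The study itself measured its markers as RNA or surface protein and scored bias by ATAC signatures of clones, so the measures differ. Genes higher in platelet-restricted (PLT) clones were at -0.01 (-0.03 to 0.01; 24 of 49 above 0, with Mecom and Neat1 having the most fragments), and genes higher in multilineage (MUL) clones at -0.02 (-0.05 to 0.01; 20 of 49 above 0), with 2610307P16Rik at -0.04 and Srsf2 at 0.22. The ratio of PLT to MUL fragments was 1.40, 1.45, 1.48, 1.47 and 1.41 in quintiles 1 to 5, highest in the middle. In the platelet-bias panel (0.02, -0.06 to 0.10) the members were Vwf (0.10), Inhba (0.05), Pdgfc (0.02), Gpr4 (0.00), Plek2 (-0.15) and Neo1 (-0.19). In the multilineage panel (0.00, -0.10 to 0.09) they were Sec16b (0.20), Flt3 (0.10), Clec4d (0.03), Ctla2a (-0.05), Sox4 (-0.09), Cd27 (-0.10) and Crip2 (-0.26). The genes of the antibody panel were at -0.01 (-0.09 to 0.06), from Vcam1 (1.08, 0.11 to 2.10, on 41 fragments), Mertk (0.30), P2rx7 (0.13) and Cd68 (0.01) through Cd163 (-0.04), Cd274 (-0.12), Itgb3 (-0.15), Mrc1 (-0.15) and Cxcr3 (-0.20) to Tnfrsf18 (-0.26) and Procr (-0.30). The sorting gate was at -0.15 (-0.26 to -0.03), with Kit at -0.16, Slamf1, which codes for CD150, at -0.42, Cd34 at 0.13, Cd48 at 0.07 and Ly6a at 0.67 (-0.16 to 1.52) on 53 fragments. At the starts the gate was at 0.03 (-0.17 to 0.23) and in the bodies at -0.27 (-0.41 to -0.12).

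Growth, energy and cycle genes lay near 0. Cytosolic ribosomal proteins were at 0.05 (0.03 to 0.07; 44 of 76 above 0), with Rps14 at 0.18, Rpl3 at 0.09 and Rps27a past 1.5-fold (0.60), nuclear respiratory chain genes at 0.04 (0.01 to 0.06), with Atp5o at 0.00 and Uqcrq at 0.11, and mitochondrial DNA maintenance at -0.05 (-0.09 to 0.00), with Polg2 at -0.30 and Polg at 0.10. Atp5o was counted over an annotated span of 242585 bp, with 5 and 8 fragments at its start in the lowest and highest quintiles. S phase genes were at -0.04 (Gins2 0.06, Usp1 0.14), G2 and M phase genes at -0.02 (Tmpo 0.08, Hjurp -0.03) and replication-dependent histones at 0.00 (Hist1h4a 0.06, Hist1h2be -0.05). Lists of other blood cells gave -0.04 for erythroid (Tfrc 0.09, Car2 -0.14), 0.02 for myeloid (Cebpa 0.17, Csf1r 0.21), 0.01 for B cell (Pax5 0.20, Ebf1 -0.19), -0.01 for T and NK cell (Gata3 -0.15, Lck -0.03) and 0.05 for endothelial and stromal genes (Pdgfra 0.14, Pdgfrb -0.07), and each of these intervals spanned 0. The mast cell and basophil list had 113 and 75 fragments in the extremes (-0.30, -0.74 to 0.13), with Cpa3 at -0.05.

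In 500 bp tiles with at least 100 fragments in the extreme quintiles, 2-fold differences were rare. Of 23257 tiles 27 were higher (0.116%) and 24 lower (0.103%) in the highest quintile, or 22 and 36 when scaled to promoter fragments. In quintiles 4 over 2, 23 of the 27 and 16 of the 24 had the same sign. Their medians there were 0.27 and -0.15, beside 0.06 over all tiles, and the share of all tiles with each sign was not counted. Only 4 of the higher and 6 of the lower tiles called lay within 1000 bp of a transcription start, against 59.8% of all tiles counted. Most called tiles lay near the minimum of 100 fragments, so this contrast is not matched on coverage. The median log2 ratio of all tiles was 0.05 and climbed with coverage, from 0.01 at 100 to 200 fragments to 0.14 at 800 to 1600, where 89.1% of tiles lay above 0. In the 58 tiles with 1600 or more it was 0.13, with 70.7% above 0. The called tile with the most fragments lay in intergenic chr2:167775001-167775500 and had 79, 123, 171, 162 and 138 fragments (1.09, 0.69 to 1.51), from 62, 96, 131, 124 and 117 cells. The highest ratios were at chr11:6695501-6696000, 37230 bp from the start of Ramp3 (38, 79, 60, 79 and 79; 1.35), near the start of Zcchc14 (chr8:121653001-121653500; 37, 61, 51, 70 and 73; 1.27), in an intron of Ablim1 (chr19:57113001-57113500; 37, 46, 55, 48 and 71; 1.23), near the start of Kcnk12 (chr17:87798501-87799000; 1.22) and in intergenic chr6:53708001-53708500 (42, 51, 64, 69 and 79). The lowest were inside Tex14 (chr11:87423501-87424000; 113, 83, 65, 62 and 34; -1.44, from 88, 62, 52, 47 and 33 cells), Pdzd2 (chr15:12631501-12632000; 78, 46, 38, 37 and 24; -1.41), the actin-bundling gene Lcp1 (chr14:75178501-75179000; 89, 59, 49, 47 and 28; -1.38), Tmem140 (chr6:34869501-34870000; 92, 58, 46, 46 and 31; -1.28) and the adenylyl cyclase gene Adcy9 (chr16:4414001-4414500; 76, 51, 38, 39 and 26; -1.26).

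With a minimum of 60 fragments, chosen after seeing the data, 38193 tiles gave 186 higher (0.487%) and 233 lower (0.61%). The highest lower bounds then belonged to neighbouring tiles just past the end of Nr4a1 (18, 51, 69, 84 and 78 fragments; 2.40, 1.65 to 3.23, and 25, 43, 46, 49 and 74; 1.85, 1.18 to 2.57). The next was intergenic chr14:75870501-75871000 (18, 18, 24, 12 and 50; 1.76), where quintile 5 alone stood apart. On the lower side stood chr7:74974501-74975000 (58, 18, 26, 20 and 7; -2.76) and chr9:5343001-5343500 (85, 30, 24, 19 and 13; -2.42), where quintile 1 stood apart, with fragments from 49 and 60 cells.

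By sequence, tiles with the full CRE had the largest gain. The strings were searched on both strands of the 100000 tiles with the most fragments, and the percent of these tiles that hold each is given beside it; strings of 10 or more letters are given by the name of their factor only. TGACGTCA, the full CRE (1.12%), had a log2 ratio of summed fragments of 0.096 (0.086 to 0.106), with 0.049 for quintiles 4 over 2. Its tiles away from transcription starts had 0.115 (0.095 to 0.135). The shorter core TGACG (25.2%), added after seeing the data, gave 0.032, and this set contains all tiles with the full CRE. CTCF tiles (8.88%) were at 0.058 and at 0.092 away from starts, yet at only 0.008 in quintiles 4 over 2. NRF1 tiles (2.40%) were at 0.036. GATA tiles (AGATAA, 17.9%) were lowest at -0.054, with -0.064 away from starts and -0.011 for quintiles 4 over 2. They were followed by SPI1 (GAGGAAGT, 5.57%; -0.025), HOX/MEIS (TGATTTAT, 1.60%; -0.025), RUNX (TGTGGT, 31.3%; -0.015) and IRF (6.55%; -0.015). AP-1 tiles (TGANTCA, 12.6%), the site of FOS and JUN proteins, were at -0.009. Of the rest, NFI (0.076%) was at 0.033 (-0.035 to 0.100), YY1 (0.367%) at 0.030, E2F (TTTGGCGC, 0.674%) at 0.019, MYC E-box (CACGTG, 9.54%) at 0.011 and CEBP (TTGCNNAA, 16.6%) at -0.011. ETS (CCGGAAGT, 2.14%), NFY (CCAAT, 42.7%), KLF/SP (GGGNGGG, 55.8%), E-box (CAGCTG, 26.6%), MEIS/TGIF (TGACAG, 28.9%) and STAT5 (TTCNNNGAA, 12.7%) lay between -0.008 and 0.007. Short strings occur by chance in many tiles, and a tile can hold several. Tiles under 40% GC were at -0.082 and those of 60% GC or more at 0.019, so base composition moves with the share, and its part in the motif values was not tested.

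**Figure D5:**
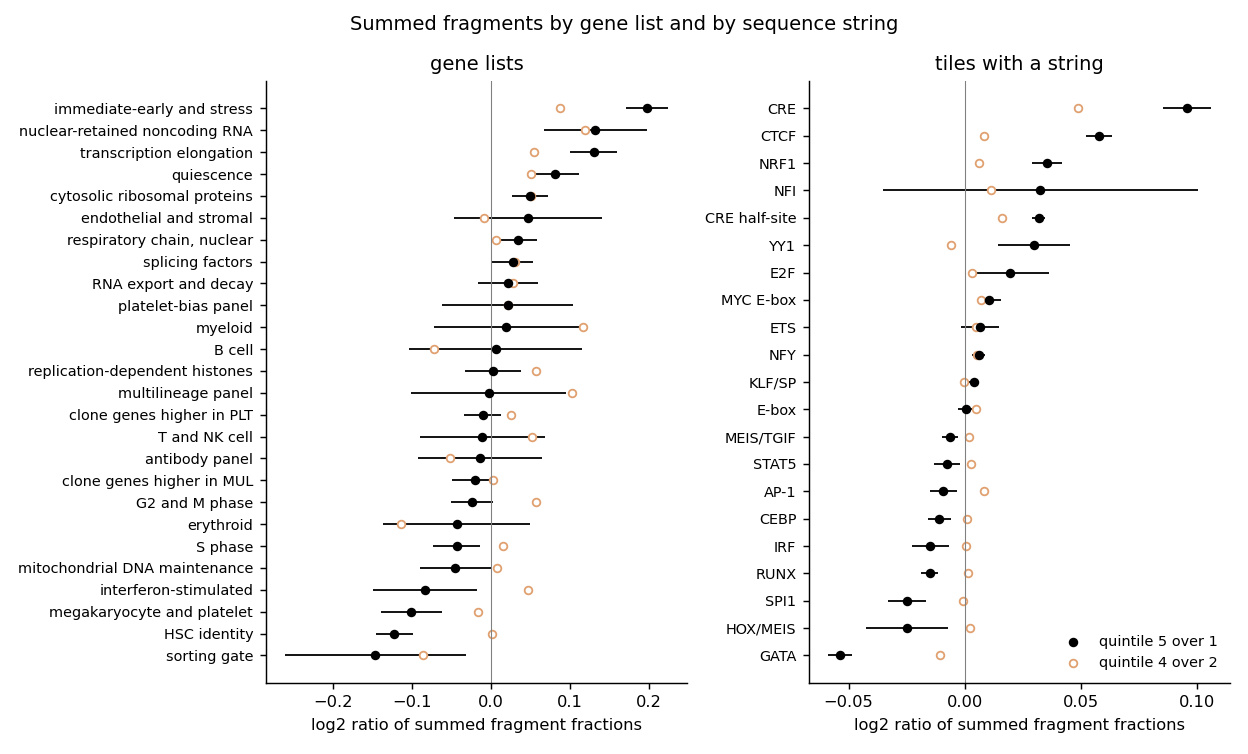
Log2 ratios of summed fragments for gene lists (left) and for tiles holding a sequence string (right), with quintile 5 over quintile 1 as black points with counting intervals and quintile 4 over quintile 2 as open circles. Immediate-early and stress genes (0.20) and CRE tiles (0.096) stand at the top, and HSC identity (-0.12) and GATA tiles (-0.054) near or at the bottom; the mast cell and basophil list, at -0.30 on few fragments, is not drawn.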

How the data were processed

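Values came from 2 libraries of 1 DOGMA-seq preparation. The authors made the files with Cell Ranger ARC 2.0.2 on mm10, and the deposited barcode table holds counts of reads, UMIs and fragments per barcode, while the deposited fragment file gives each fragment's position, barcode and count of read pairs; neither was normalized. Antibody tag counts and RNA counts per gene were not used here. Fragments on chromosomes 1 to 19 and X were placed by their midpoint with GENCODE vM21 (GRCm38; 0 fragments ended beyond a chromosome), and 52707 on other contigs were left out. Mitochondrial reads came from the barcode table, since the fragment file lists 0 on that contig. Ratios are fragments over all fragments of a quintile, highest over lowest, with exact conditional binomial intervals (95%). The study's limits on peaks, nucleosome signal and starts left out 0 further cells. Doublets were kept, and leaving out 200 marked by an excess of sites with more than 2 overlapping fragments was an alternative.

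Named genes are the 8 largest gains and losses past 1.5-fold, the 2 members with the most fragments of each list and the genes of the panels; of tiles, the 5 highest and lowest and the best covered. Some items that meet this rule are not reported here. The cells, lists and strings were chosen with earlier results of these data known. Promoter sequences are from RefSeq (GRCm38). Counting was tested on simulated data. Python 3.11.15, numpy 2.4.6, scipy 1.17.1, pandas 2.3.3 and matplotlib 3.10.9 were used.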

Additional observations from a re-analysis of the deposited data

How the results depend on the processing

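The number of cells limits these values, since a tile of 100 fragments rests on under 100 cells of each extreme quintile, and with 1 preparation no value has a replicate. No paired analysis was possible because all libraries come from 1 preparation. The mitochondrial ratio (0.627) lay between 0.567 and 0.750. Its interval over cells reached 1 with the share ranked within bins of ATAC fragments, with the share from mapped reads and from 4000 UMIs. Total RNA (1.11) was 1.18 with the share ranked within 20 bins of ATAC fragments and 1.00 with the share from mapped reads. From 4000 UMIs, a minimum set on total RNA itself, it was 0.971. Within 20 bins of RNA UMIs and within 5 by 5 bins of both it was 1.00, which the matching on RNA UMIs sets. ATAC depth (0.857) was 0.784 for the outermost 10% and 0.783 from 4000 UMIs. Within ATAC bins it was 1.00 and within bins of both 0.997, values that the matching on ATAC fragments sets. The promoter log2 ratio (0.044) was 0.052 within RNA bins, 0.025 within ATAC bins, 0.024 within both, 0.058 for the outermost 10%, 0.055 from 4000 UMIs, 0.052 without doublets and 0.052 without the 10% of cells highest in mitochondrial reads. CRE tiles (0.096) gave 0.110, 0.081, 0.133, 0.108 and 0.123 within RNA bins, within ATAC bins, for the outermost 10%, with mapped reads and from 4000 UMIs. Immediate-early genes (0.20) gave 0.17 within ATAC bins, 0.16 within both, 0.26 for the outermost 10%, 0.25 from 4000 UMIs, 0.17 at starts, 0.15 scaled to promoter fragments and 0.16 without Nr4a1. No alternative turned any of these log2 ratios.

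Scaled to promoter fragments, 17 genes were higher and 95 lower, and 22 tiles higher and 36 lower. Genes higher (24) and lower (67) numbered 73 and 154 by both fragment ends, 15 and 12 with cells thinned to 3000 fragments, 71 and 160 from 100 fragments and 7 and 9 from 400, and 37 were lower within ATAC bins. Tiles higher (27) and lower (24) numbered 17 and 9 for the outermost 10%, 54 and 43 with mapped reads, 3 and 0 with thinned cells, 1 and 0 from 200 fragments and 186 and 233 from 60. Higher tiles alone moved to 42 within ATAC bins and to 42 within both, and lower tiles to 46 within RNA bins, 11 from 4000 UMIs, 15 without doublets and 61 in tiles of 5000 bp. Counts of called tiles and genes thus depend on the minimum and the depth. The 16 named genes were picked for large ratios in cells that the alternatives mostly share, so their direction says little of stability. At the start alone Grik2 was at 0.48 (7 and 8 fragments) and Lrrc4c at 2.29 (1 and 4), where Ros1 and Cdh18 had too few fragments for a ratio. Nr4a1 lay between 0.65 and 0.90.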
